A study of Rattus norvegicus with 8 samples.

Results

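The plasma membrane and vesicle carriers of amino acids and amino acid-like transmitters were read in whole spinal cords of rats with experimental autoimmune encephalomyelitis (EAE) and of healthy rats. They were taken as all genes of solute carrier (Slc) families 1, 3, 6, 7, 15, 17, 18, 32, 36, 38 and 43 to which the array's annotation gives a single symbol. This gave 52 genes with 707 probe sets among 7830 annotated genes, and no gene of family 43. Each of the 52 had at least 1 probe set above the filter on low signal described below, so all were tested.

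Total RNA came from 8 female Lewis rats aged 16 weeks, 1 exon array per rat. The EAE group held 4 virgin rats (numbered 217, 218, 219 and 241) that had been injected under the skin of the tail base with myelin basic protein (MBP) of guinea pig brain at a dose of 50 µg. The injection was in incomplete Freund's adjuvant, to which M. Butiricium, a mycobacterium, had been added at 4.0 mg/ml. Their cords were taken at day 13, at the peak of disease. The control group held 4 untreated virgin littermates (193, 194, 195 and 196) taken at the same time, also labelled day 13. Controls received no adjuvant, so the effects of adjuvant and of autoimmunity to myelin cannot be told apart in these data.

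These carriers set how much transmitter stays outside the cell and how much substrate reaches the cell. Family 1 clears glutamate, which astrocytes take up for neurons. Family 6 carries GABA, glycine, monoamines, taurine, creatine and proline with sodium. Family 7 exchanges amino acids at the membrane, in part only as a light chain bound to a heavy chain of family 3. Families 17, 18 and 32 fill synaptic vesicles, while families 15, 36 and 38 move peptides and amino acids across lysosomal and plasma membranes.

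Values are log2 intensities, and a gene's value on an array is the mean of its probe sets that reached log2 3.98, the 25th percentile over the whole table, on at least 4 of the arrays. A change is EAE minus control on that scale with its SE from limma, and a gene is called past the threshold at a Benjamini-Hochberg adjusted p under 0.05 over all 6961 genes tested. Array means were nearly equal, and the array of control rat 195 stood apart by the narrowest spread (SD 2.11, against 2.17 to 2.26 on the others). That array also had the highest median signal of olfactory receptors, used as background below (3.77, against 3.16 to 3.49 on the others). Markers of the labelled tissue were present: none of the 8 neuronal, 8 astrocyte and 9 oligodendrocyte markers measured lay at background in both groups. Background was read from 1049 olfactory receptor genes, whose values had a 95th percentile of 4.77 on the control arrays and of 4.70 on the EAE arrays. By this limit 5 carriers lay at background in both groups and 42 in neither. A stricter limit from the 405 olfactory receptor genes with probe sets past the same filter (6.39 and 6.43) put 32 carriers at background in both groups and left 17 above it in both. Of the carriers called below, the stricter limit put Slc6a12, Slc6a20, Slc7a3, Slc7a7, Slc7a8, Slc7a9, Slc15a3, Slc15a4, Slc18a3 and Slc36a1 at background in both groups. A change among the dimmer carriers is therefore read close to the floor of the array.

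Carriers changed in both directions, with members of families 1, 3, 6, 7, 15, 36 and 38 among the rises and of families 3, 6, 7 and 18 among the falls. Of the 52 genes 12 rose and 7 fell. Over all genes tested 13.7% rose and 17.4% fell (31.1% in either direction), while the shares among the carriers were 23.1% and 13.5%. A rise of 1 or more on the log2 scale was found in 4 carriers, Slc7a7, Slc15a3, Slc7a2 and Slc1a3, and a fall of as much in Slc7a10 (6.39% and 1.16% of all genes). The controls of Slc7a7 and Slc15a3 lay at background, so the size of their rises is limited by that floor and they have no order. The median change, given as a description with no test of the list, was -0.11 over the carriers and -0.11 over all genes. The groups did not overlap in 18 carriers, or 34.6%, against 33.2% of all genes. Without control 195 the count was 12 rises and 11 falls, since Slc1a2, Slc6a9, Slc6a11 and Slc17a6 then passed as falls. The share of falls also went up over all genes in that setting, to 19.5%, with 14.3% rising.

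**Figure D1:**
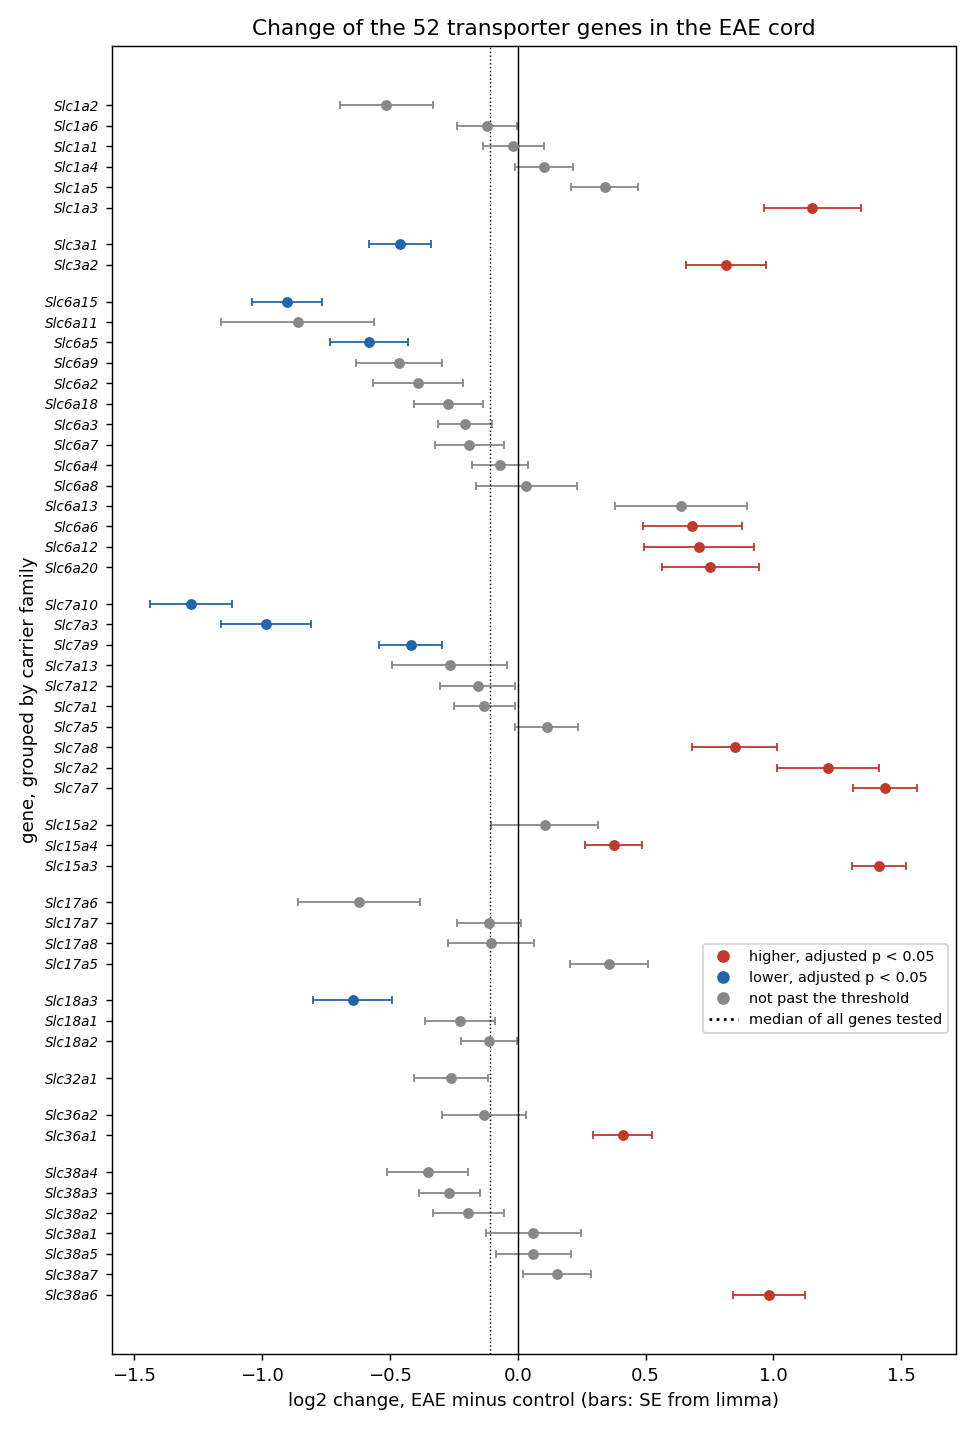
Log2 change, EAE minus control (x axis), of the 52 transporter genes, grouped by carrier family along the y axis; bars are SE from limma with 4 rats per group, red and blue mark genes past an adjusted p of 0.05, and the dotted line is the median of all genes tested. The changes ran from -1.28 (Slc7a10) to 1.44 (Slc7a7), and families 3, 6 and 7 held both rises and falls.

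Whole cords were read, so fewer cells of a type and less RNA per cell cannot be told apart in any of these values. Markers of several cell types moved with the groups. All 9 myeloid markers measured, of 12 listed, rose, with a median change of 3.47, and their summed level ran from 8.85 to 9.30 in controls and from 12.83 to 13.13 in EAE. Of these Itgam, Cd14, Cybb and Ccr2 lay at background in controls. All 7 T cell markers measured, of 10 listed, rose, with a summed level of 6.86 to 7.19 in controls and 9.48 to 9.71 in EAE. All of them but Cd4 lay at background in controls. Of 8 neuronal markers 4 fell and none rose (13.91 to 14.14 in controls and 13.54 to 13.76 in EAE), and of 9 oligodendrocyte markers 6 fell and none rose (13.27 to 13.62 and 12.68 to 12.97). Of 8 astrocyte markers 2 rose (Gfap by 0.69 ± 0.14 and Gja1 by 0.69 ± 0.17) and Fgfr3 fell by 0.37 ± 0.10, with summed levels that overlapped between groups (12.67 to 13.47 and 12.88 to 13.44). Of 4 endothelial markers measured Slco1c1 fell, and of 3 erythroid ones both haemoglobin chains fell. What part of each carrier's change these shifts account for was not tested.

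Of the 2 glutamate carriers of astrocytes, 1 rose. Slc1a3, which takes up glutamate at astrocyte membranes, was 2.22-fold higher. Slc1a2, the main glutamate carrier of mature astrocytes, did not pass the threshold and had a lower mean in EAE. Slc1a3 read 8.34, 7.85, 7.39 and 7.98 in controls and 9.09, 8.91, 8.89 and 9.27 in EAE. All 4 EAE rats lay above all controls, and the change was 1.15 ± 0.19 (adjusted p = 0.00132 in limma). Slc1a2 read 10.75, 10.52, 9.97 and 10.39 in controls and 10.04, 9.60, 10.19 and 9.77 in EAE. The groups overlapped there, since control 195 lay below EAE 217 and EAE 219, and the change was -0.51 ± 0.18 (adjusted p = 0.0580 in limma). Without control 195 it was -0.66 (adjusted p = 0.0106), and without EAE 219 it was -0.61 (0.0449). With the median of its probe sets in place of the mean it was -0.73 (0.0409). Slc1a2 also passed with array quality weights (0.00764), median centring (0.0444) or limma's trend and robust options (0.0456).

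The other members of family 1 did not pass the threshold. Slc1a1, a neuronal carrier of glutamate and cysteine, read 6.28, 6.04, 5.85 and 6.09 in controls and 6.04, 6.13, 5.86 and 6.16 in EAE, which left the groups fully mixed (change -0.017 ± 0.12). Slc1a5, which exchanges glutamine and other neutral amino acids, had a change of 0.34 ± 0.13 and passed without control 196 (0.46, adjusted p = 0.0126 in limma) and with array quality weights (0.31, 0.0351). Slc1a4, a carrier of alanine, serine and cysteine, had a change of 0.10 ± 0.12, and Slc1a6, a glutamate carrier known from cerebellar Purkinje cells, one of -0.12 ± 0.12.

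Of the GABA carriers of family 6, 1 of 3 passed the threshold. Slc6a12, which carries betaine and GABA, rose 1.63-fold. Slc6a11, an astrocyte GABA carrier, and Slc6a13, a GABA and taurine carrier known from the meninges, did not pass. Slc6a12 read 5.29, 5.01, 5.51 and 4.54 in controls and 6.10, 5.98, 5.57 and 5.54 in EAE. Its groups met without overlapping, between control 195 and EAE 241, and the change was 0.71 ± 0.21 (adjusted p = 0.0304 in limma). That call was lost without control 194, control 196, EAE 217 or EAE 218 (adjusted p from 0.0565 to 0.0756) or with no variance moderation (0.0875). Slc6a11 read 8.04, 7.31, 7.06 and 7.67 in controls and 7.08, 5.98, 7.24 and 6.32 in EAE. The EAE rats were split, with 217 and 219 within the range of the controls and 218 and 241 below it. Its change was -0.86 ± 0.30 (adjusted p = 0.0533 in limma), and it passed without control 195 (0.0302), EAE 217 (0.0488) or EAE 219 (0.0293). Slc6a11 also passed with quantile normalization (0.0387), median centring (0.0443) or limma's trend and robust options (0.0473). The filter at the 50th percentile (0.0477) and arrays centred on the genes tested (0.0474) called it too. Slc6a13 had a change of 0.64 ± 0.26, close to that of Slc6a12, and passed without control 193 (0.79, adjusted p = 0.0453), with array quality weights (0.89, 0.0128) or with the median of its probe sets (1.01, 0.0250). A difference between the GABA carriers was not tested. The carrier that loads GABA and glycine into vesicles, Slc32a1, read 7.05, 7.06, 6.72 and 6.94 in controls and 6.34, 6.69, 6.95 and 6.74 in EAE. The groups overlapped and the change was -0.26 ± 0.14 (adjusted p = 0.199).

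Of the 2 glycine carriers of family 6, 1 fell. Slc6a5, the carrier of glycinergic nerve endings, passed the threshold, and Slc6a9, the carrier that clears glycine mainly into astrocytes, had a lower mean without passing. Slc6a5 read 8.10, 7.96, 7.45 and 8.08 in controls and 7.34, 7.14, 7.40 and 7.37 in EAE. All EAE rats lay below all controls, by a narrow margin against control 195, and the change was -0.58 ± 0.15 (adjusted p = 0.0161 in limma). Without control 196 it was -0.52 (0.0520) and did not pass. Slc6a9 read 8.15, 7.83, 7.39 and 8.01 in controls and 7.40, 7.22, 7.28 and 7.63 in EAE. Control 195 lay within the range of the EAE rats, and the change was -0.47 ± 0.17 (adjusted p = 0.0615), or -0.62 without that control (0.00588). Slc6a9 also passed with quantile normalization (0.0238), median centring (0.0464), array quality weights (0.0108) or the filter at the 50th percentile (0.0313).

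Slc7a10, which exchanges small neutral amino acids including glycine and serine, fell. It read 6.71, 6.39, 6.14 and 6.66 in controls and 5.30, 5.10, 5.46 and 4.93 in EAE. Each EAE rat lay below each control, and the change was -1.28 ± 0.16, a 2.43-fold fall (adjusted p = 0.000234 in limma). Its call held under each of 18 other settings, with changes from -1.44 to -1.15.

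**Figure D2:**
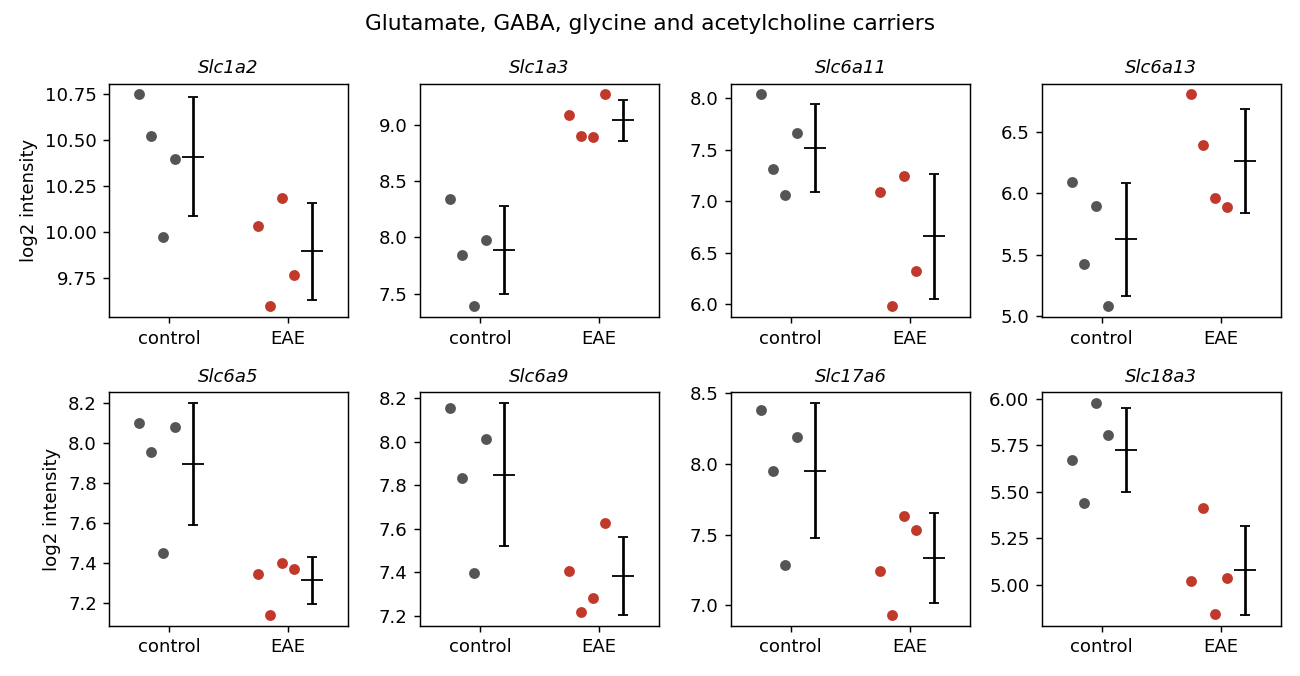
Log2 intensity (y axis) of 8 transmitter carriers on each array, control rats in grey and EAE rats in red, with the mean and SD of each group (n = 4) beside the points; each panel has its own y range. Slc1a3 lies wholly higher and Slc6a5 and Slc18a3 wholly lower in EAE, while the groups of Slc1a2, Slc6a11, Slc6a13, Slc6a9 and Slc17a6 overlap.

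Of the 7 carriers of families 17 and 18, 1 fell and none rose. Slc18a3, which loads acetylcholine into vesicles of motor and other cholinergic neurons, was the one that fell. It read 5.67, 5.44, 5.98 and 5.80 in controls and 5.02, 5.41, 4.84 and 5.03 in EAE over 2 probe sets. EAE 218 came close to control 194 without reaching it, and the change was -0.65 ± 0.15 (adjusted p = 0.0103 in limma). It rests on 1 of those probe sets, 6717648, which fell by 0.96 ± 0.22, while 5637852 lay at background in both groups (-0.34 ± 0.24). Slc17a6, which loads glutamate in most spinal excitatory neurons, read 8.38, 7.95, 7.29 and 8.19 in controls and 7.24, 6.93, 7.63 and 7.53 in EAE. Control 195 again lay among the EAE rats, and the change was -0.62 ± 0.24 (adjusted p = 0.0753), or -0.84 without that control (0.00630). The other vesicular glutamate carriers, Slc17a7 (5.17, 5.49, 5.38 and 5.03 in controls and 5.34, 5.11, 5.10 and 5.08 in EAE) and Slc17a8, had changes of -0.11 ± 0.13 and -0.10 ± 0.17. Neither passed, and Slc17a8 lay at background in both groups.

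Monoamine carriers did not pass. Slc18a2, the vesicular monoamine carrier of neurons, read 5.02, 5.18, 5.12 and 4.93 in controls and 4.86, 4.97, 5.15 and 4.81 in EAE, and the groups overlapped (change -0.11 ± 0.11). The membrane carriers of noradrenaline (Slc6a2, -0.39 ± 0.18), dopamine (Slc6a3, -0.21 ± 0.11) and serotonin (Slc6a4, -0.068 ± 0.11) all had lower means in EAE. The cell bodies that make these transmitters lie mainly in the brainstem and ganglia rather than the cord, and Slc6a3 and Slc18a1, another vesicular monoamine carrier, lay at background in both groups. Slc6a2 passed without control 193 (-0.53, adjusted p = 0.0277 in limma) and Slc18a1 without EAE 218 (-0.38, 0.0415). Slc17a5, which exports sialic acid from lysosomes, had a change of 0.36 ± 0.15 and passed without control 193 (0.45, 0.0413).

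The remaining family 6 carriers were those of amino acids and osmolytes. Slc6a15, a neuronal carrier of branched-chain amino acids and proline, fell, while Slc6a20, a carrier of proline and other imino acids, and Slc6a6, the taurine carrier, rose. Slc6a15 read 7.98, 7.97, 7.97 and 8.41 in controls and 7.14, 6.96, 7.35 and 7.27 in EAE. Every EAE rat lay well below every control, and the change was -0.90 ± 0.14 (adjusted p = 0.000796 in limma), with 14 of its 17 probe sets falling. Slc6a20 (now Slc6a20a) read 5.52, 5.06, 4.85 and 4.53 in controls and 5.71, 5.66, 5.94 and 5.66 in EAE. The EAE rats were close together and above the widely spread controls, and the change was 0.75 ± 0.19 (adjusted p = 0.0136). It was 0.40 (0.283) with the median of the probe sets in place of the mean. Of the 8 probe sets of Slc6a20 3 rose, 2 of these at background in both groups, and none fell. Their changes ran from -0.51 to 1.43. Slc6a6 rose by 0.68 ± 0.19 (adjusted p = 0.0236) with an overlap between groups. Its call was lost without control 196, EAE 217, EAE 218 or EAE 241 (adjusted p from 0.0506 to 0.0700) or with no variance moderation (0.0706). Slc6a8, the creatine carrier, had a change of 0.033 ± 0.20, Slc6a7, the brain proline carrier, one of -0.19 ± 0.13, and Slc6a18, a kidney carrier at background here, one of -0.27 ± 0.14.

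The heteromeric carriers, pairs of a heavy and a light chain, held both rises and falls. Slc3a2, the heavy chain that brings several light chains to the membrane, rose together with its light chains Slc7a7 and Slc7a8. Its light chain Slc7a10 fell, as given above, and Slc7a5 did not pass. Slc3a1, the heavy chain of kidney and gut, and its light chain Slc7a9 fell. Slc3a2 read 6.87, 6.66, 6.23 and 6.66 in controls and 7.32, 7.54, 7.17 and 7.64 in EAE. Every EAE rat lay above every control, and the change was 0.81 ± 0.16 (adjusted p = 0.00339 in limma), with 9 of 13 probe sets rising and none falling.

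Slc7a7, which exports cationic amino acids such as arginine in exchange for neutral ones and is known in macrophages, rose. It read 4.29, 4.40, 4.66 and 4.36 in controls and 5.98, 5.89, 5.60 and 5.98 in EAE. By the first background limit the controls lay at background and the EAE rats above it. The change was 1.44 ± 0.13 (adjusted p = 1.86e-05 in limma). The EAE mean was 2.13-fold above that limit. By the stricter limit both groups lay at background, so no smallest fold can be given. Slc7a8, an exchanger of neutral amino acids, read 5.35, 4.99, 5.001 and 5.06 in controls and 5.999, 6.10, 5.48 and 6.22 in EAE. EAE 219 was the lowest EAE rat and still above the highest control, 193, with a change of 0.85 ± 0.17 (adjusted p = 0.00372). Slc7a5, the large neutral amino acid carrier of the blood-brain barrier and of activated T cells, read 4.87, 4.72, 4.49 and 4.91 in controls and 4.84, 4.91, 4.70 and 4.99 in EAE. These groups overlapped near background, with a change of 0.11 ± 0.12 (adjusted p = 0.524).

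Slc3a1 fell by 0.46 ± 0.12 (adjusted p = 0.0171 in limma), read by 4 of its 11 probe sets, 2 of them at background in both groups. It held its direction but not its call without EAE 217 (-0.43, 0.0559) or when dim probe sets were kept (-0.036, 0.846), and it was -0.80 with the filter at the 50th percentile. Slc7a9 fell by 0.42 ± 0.12 (adjusted p = 0.0272), read by 5 of its 16 probe sets. That call was lost without control 194, control 196, EAE 218, EAE 219 or EAE 241 (adjusted p from 0.0518 to 0.0837) and with the filter at the 50th percentile (-0.23, 0.298), no filter (-0.17, 0.276) or the median of its probe sets (-0.48, 0.0813).

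Sequences at the starts of transcription of 4 heteromeric carriers are shown because Slc3a2, Slc7a7 and Slc7a8 rose together while Slc7a10 fell. Each sequence runs 5′ to 3′ on the gene's strand from 250 bases before to 50 after a RefSeq start in assembly GRCr8, and capitals mark GAGGAA, the core read by the myeloid factor PU.1, on either strand.
Slc3a2, first of 2 starts, chr1:215048015-215048314, minus strand: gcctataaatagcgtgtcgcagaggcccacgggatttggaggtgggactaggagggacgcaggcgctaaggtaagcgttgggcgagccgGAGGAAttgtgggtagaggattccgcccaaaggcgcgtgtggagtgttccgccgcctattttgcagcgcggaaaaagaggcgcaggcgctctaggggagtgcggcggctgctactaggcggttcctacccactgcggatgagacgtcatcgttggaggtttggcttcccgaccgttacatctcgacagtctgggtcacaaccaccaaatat
Slc7a7, chr15:31835634-31835933, minus strand: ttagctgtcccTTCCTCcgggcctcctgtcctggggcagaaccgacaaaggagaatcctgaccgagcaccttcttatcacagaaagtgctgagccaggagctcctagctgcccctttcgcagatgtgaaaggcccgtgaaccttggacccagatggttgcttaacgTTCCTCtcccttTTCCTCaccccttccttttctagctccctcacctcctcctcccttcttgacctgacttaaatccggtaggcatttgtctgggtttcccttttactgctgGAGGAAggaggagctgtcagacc
Slc7a8, chr15:32212666-32212965, minus strand: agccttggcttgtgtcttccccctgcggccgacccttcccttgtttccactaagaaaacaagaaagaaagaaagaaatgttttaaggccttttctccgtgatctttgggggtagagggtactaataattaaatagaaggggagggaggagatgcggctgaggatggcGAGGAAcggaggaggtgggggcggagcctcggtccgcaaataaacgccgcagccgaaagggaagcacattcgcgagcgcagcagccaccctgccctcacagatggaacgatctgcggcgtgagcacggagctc
Slc7a10, chr1:96965872-96966171, plus strand: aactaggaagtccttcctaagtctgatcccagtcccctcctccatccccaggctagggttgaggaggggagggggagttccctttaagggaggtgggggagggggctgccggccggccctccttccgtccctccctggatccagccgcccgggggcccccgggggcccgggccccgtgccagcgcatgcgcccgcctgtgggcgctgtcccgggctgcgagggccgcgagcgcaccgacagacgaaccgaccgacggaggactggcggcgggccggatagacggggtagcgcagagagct
The Slc7a7 window held 4 matches, those of Slc3a2 and Slc7a8 held 1 each, and that of Slc7a10 held none. At least 1 match stood in 27.6% of 33469 rat promoter windows of this length and in 15 of 44 windows of the carriers, which covered 40 of the 52 genes. As many as 4 stood in 0.14% of all windows, a share worked out for the count of the Slc7a7 window alone and not for other carriers. Other letters searched on both strands were TTCNNNGAA (8.87% of all windows, 0 of 44 carrier windows), TGATGNAA (3.98%, 3 of 44) and CACGTG (6.42%, 5 of 44), none of which stood in the windows shown. Such a match describes the letters, and binding was not measured here.

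**Figure D3:**
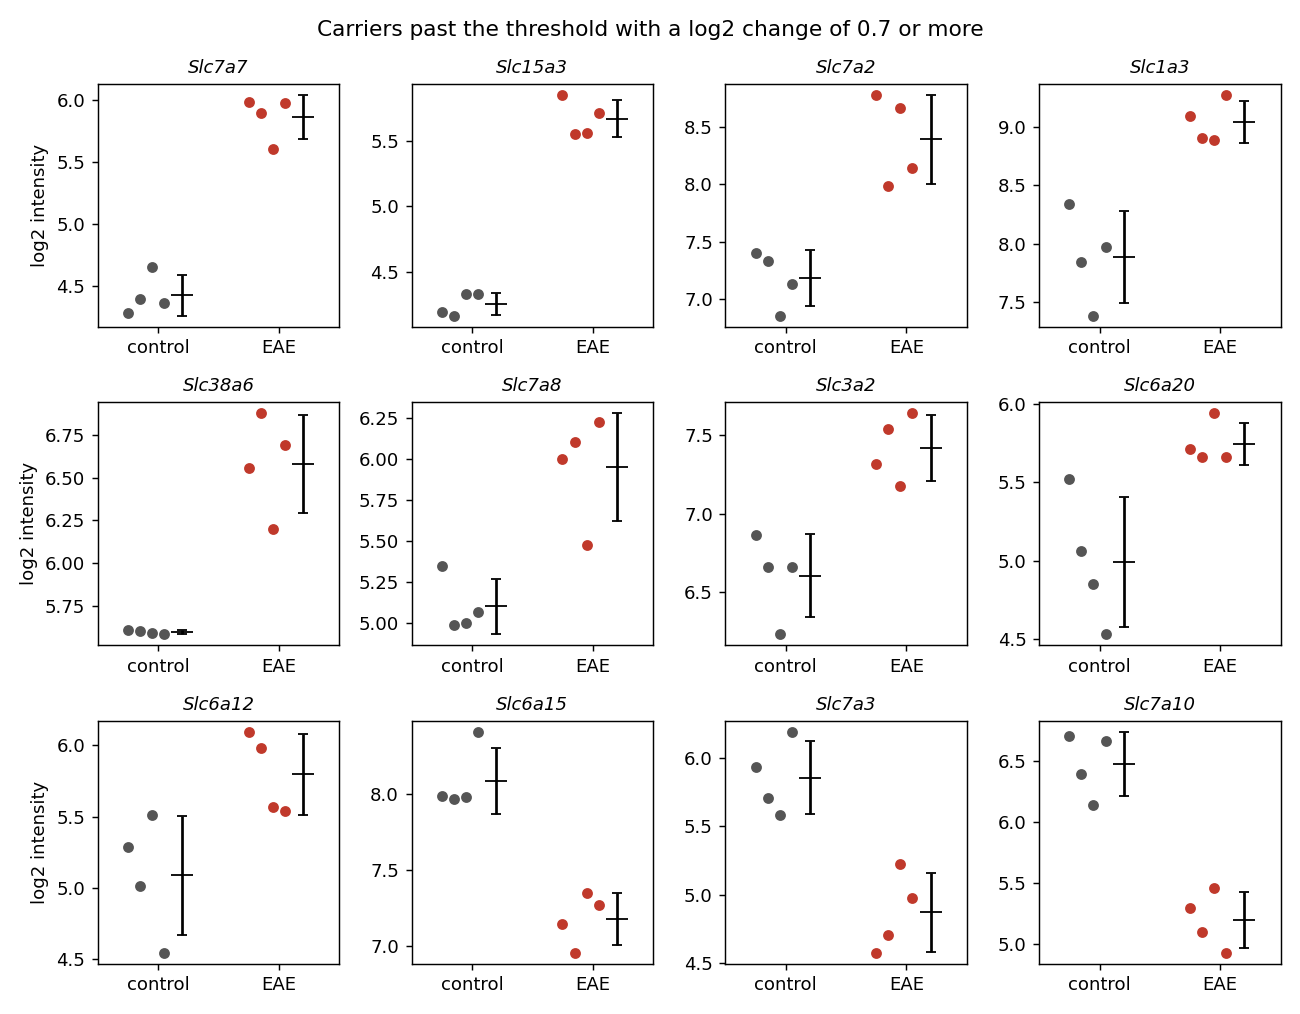
Log2 intensity (y axis) on each array of the 12 carriers past an adjusted p of 0.05 with a log2 change of 0.7 or more in either direction, control rats in grey and EAE rats in red, with the mean and SD of each group (n = 4); each panel has its own y range. The groups do not overlap in any of the 12 panels, and the last 3, Slc6a15, Slc7a3 and Slc7a10, are the falls.

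The cationic amino acid carriers, which bring in arginine, lysine and ornithine, differed by member. Slc7a2, the form induced in activated macrophages, rose, Slc7a3, a neuronal form, fell, and the widely expressed Slc7a1 did not pass. Slc7a2 read 7.40, 7.33, 6.86 and 7.13 in controls and 8.78, 7.99, 8.67 and 8.14 in EAE. All EAE rats lay above all controls, with 217 and 219 higher than 218 and 241, and the change was 1.21 ± 0.20 (adjusted p = 0.00128 in limma). All of its 13 probe sets had a higher mean in EAE, and 10 rose. Slc7a3 read 5.94, 5.71, 5.58 and 6.19 in controls and 4.58, 4.71, 5.22 and 4.97 in EAE over 4 probe sets. All EAE rats lay below all controls, the change was -0.98 ± 0.17 (adjusted p = 0.00211), and it was -0.45 with no filter on dim probe sets. Slc7a1 had a change of -0.13 ± 0.12. Slc7a12 and Slc7a13, read by 3 probe sets and 1, had changes of -0.16 ± 0.15 and -0.27 ± 0.22, and Slc7a13 lay at background, although it passed without control 193 (-0.49, adjusted p = 0.0379).

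Of the carriers of families 15 and 36, 3 lysosomal ones rose. Slc15a3, a peptide and histidine carrier of lysosomes in immune cells, its relative Slc15a4 and the lysosomal proton-coupled carrier Slc36a1 passed the threshold. Slc15a3 read 4.20, 4.17, 4.33 and 4.33 in controls and 5.85, 5.55, 5.56 and 5.71 in EAE. Controls lay at background and close together, all EAE rats lay above it, and the change was 1.41 ± 0.11 (adjusted p = 6.20e-06 in limma). The EAE mean was 1.87-fold above the first background limit. By the stricter limit both groups lay at background, so no smallest fold can be given here either. Slc15a4 rose by 0.38 ± 0.11 (adjusted p = 0.0284), a call lost without control 194, control 196, EAE 217, EAE 219 or EAE 241 (0.0637 to 0.0866) or with arrays centred on the genes tested (0.0641). The median of its probe sets gave 0.76 (0.0134). Of the 9 probe sets of Slc15a4 2 rose, both with controls at background and 1 at background in both groups. Slc36a1 rose by 0.41 ± 0.11 (0.0217), a call lost without control 194, control 196, EAE 217 or EAE 241 (0.0625 to 0.0711) or with the median of its probe sets (0.133). The filter at the 50th percentile gave 0.74 (0.0108). Of the 10 probe sets of Slc36a1 2 rose, 1 of them with controls at background. Slc15a2, a peptide carrier of astrocytes and choroid plexus, had a change of 0.11 ± 0.21 over 26 probe sets, and Slc36a2 one of -0.13 ± 0.16.

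Of the 7 carriers of family 38, which move glutamine and other neutral amino acids, 1 passed, Slc38a6. It read 5.61, 5.61, 5.59 and 5.58 in controls and 6.56, 6.88, 6.20 and 6.69 in EAE. The controls lay closer together than in any other panel of the plot of the largest changes, every EAE rat lay above them, and the change was 0.98 ± 0.14 (adjusted p = 0.000533 in limma). The neuronal glutamine carriers Slc38a1 (0.061 ± 0.19) and Slc38a2 (-0.19 ± 0.14) and the astrocyte carrier Slc38a3 (-0.27 ± 0.12), which take part in the return of glutamine to nerve endings, did not pass. Slc38a4, Slc38a5 and Slc38a7 had changes of -0.35 ± 0.16, 0.062 ± 0.15 and 0.15 ± 0.13. Slc38a4 passed as lower without control 193 (-0.48, adjusted p = 0.0283), with quantile normalization (-0.50, 0.0381), array quality weights (-0.48, 0.0143), arrays centred on the genes tested (-0.55, 0.0269) or the filter at the 50th percentile (-0.89, 0.0231). That filter also called Slc38a3 (-0.41, 0.0224).

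The array reads each gene in several places, so single probe sets were compared as well. Of 537 measured probe sets of the carriers 74 rose and 58 fell, against 10.2% rising and 10.2% falling among all 62176 measured probe sets. The 95th percentile of single olfactory receptor probe sets was 5.22 in each group, and by it 31 of the 74 rising probe sets had controls at background and 9 of the 58 falling ones had EAE values there. Such changes are read from the floor, and their sizes are fitted differences. In 49 carriers with at least 3 measured probe sets, limma's diffSplice F test asked whether the probe sets of a gene changed unequally. It called 12 of them, where it called 26.6% of all 5563 genes tested. Slc7a7, Slc15a3 and Slc7a10 were called under each of 14 other settings, and the other 9 were not. The count of 12 ran from 4 without EAE 241 to 19 without control 193, and was 5 or 6 without control 194, control 196, EAE 217 or EAE 218 and 7 without EAE 219.

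In Slc7a7 some probe sets rose and others did not pass. Of its 12 probe sets 7 rose, by 1.77 to 3.55, and 5 had changes of -0.40 to 0.33 (adjusted p = 1.23e-21 in diffSplice). Of the 7, 6 had controls at background, and 3 of these passed the filter through the EAE arrays alone, since all their controls lay under it. The one with a control mean above background, 6296513, named after its values were seen, rose from 5.25, 5.70, 4.77 and 5.54 in controls to 8.76, 8.10, 7.75 and 8.80 in EAE. Probe set 6157121 lay farthest above the rest of its gene in change, from 3.21, 2.91, 2.86 and 3.17 in controls to 6.56, 6.22, 6.50 and 7.06 in EAE, with every control at background and under the filter. Probe set 6126652 stayed farthest below the rest, with 5.10, 5.33, 6.09 and 5.20 in controls and 4.87, 5.05, 5.20 and 5.002 in EAE. The gene's mean change of 1.44 thus averages 2 kinds of probe set, and it was 2.30 with the filter at the 50th percentile, which dropped dim probe sets. Where these probe sets lie in the gene was not used here.

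Slc15a3 and Slc7a10 were also called. In Slc15a3 8 of 12 probe sets rose, by 1.18 to 2.57, and 4 had changes of -0.017 to 0.54 (adjusted p = 2.75e-11 in diffSplice). All 8 had controls at background, and 2 of them lay there in both groups and passed the filter through the EAE arrays alone. Its probe set 6501765 stayed farthest below the rest, from 6.56 to 7.30 in controls and from 6.83 to 7.17 in EAE. In Slc7a10 (adjusted p = 0.000288 in diffSplice) 7 of 10 probe sets fell, 4 of them to background in EAE, by as much as 2.23 in 5881884. In contrast 6225850 had means of 7.43 and 7.52. Probe set 6225850 was the only one of the gene with a higher mean in EAE, by 0.089 ± 0.20.

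**Figure D4:**
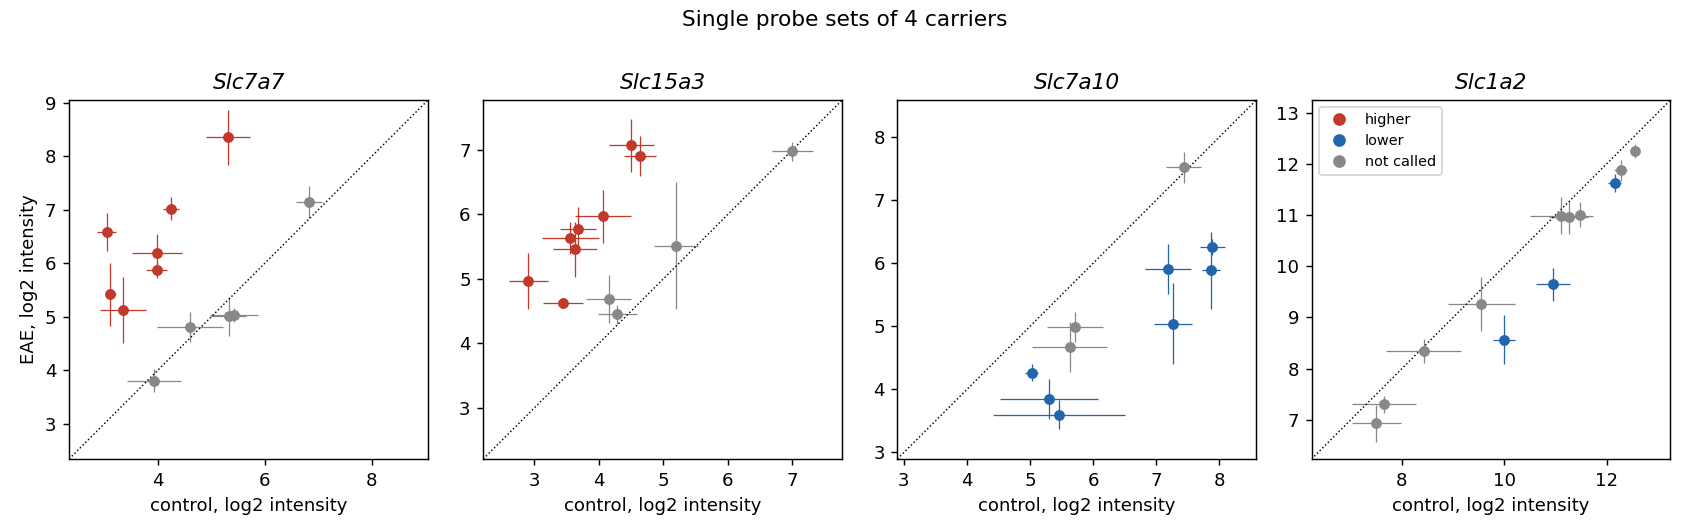
Mean log2 intensity in EAE (y axis) against controls (x axis) for each measured probe set of 4 carriers, with SD over 4 rats as bars, red and blue for probe sets past an adjusted p of 0.05 and a dotted line of equality. In Slc7a7 and Slc15a3 some probe sets rise and others lie near the line, 1 probe set of Slc7a10 lies just above it, and 2 probe sets of Slc1a2 fall farther than the rest.

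The other 9 genes were called with less margin. In Slc1a2 probe sets 6506386 and 6262057 fell by 1.43 and 1.31, and the other 10 had changes of -0.57 to -0.084 (adjusted p = 0.0401 in diffSplice). The first of these read 9.92, 10.24, 9.73 and 10.09 in controls and 8.92, 8.43, 8.96 and 7.94 in EAE, without overlap. The call of unequal change was lost in Slc1a2 when any 1 array other than control 193 or control 195 was left out (adjusted p from 0.0636 to 0.295). In Slc1a3 (adjusted p = 0.0442 in diffSplice) 10 of 12 probe sets rose, by as much as 2.32 in 6446427. Its probe set 6043031 had a change of 0.43 and did not pass (adjusted p = 0.0995 in limma). Slc36a1 ranged from -0.54 (6723025) to 1.31 (6744024), Slc7a8 from -0.29 (5624282) to 1.84 (6249468) and Slc17a5 from -0.72 (6396516) to 1.22 (6657967). Slc6a5 ranged from -1.48 (5785690) to 0.055 (6699178), Slc38a2 from -1.09 (5664230) to 0.46 (6720711), and Slc3a1 from -0.92 (6101534) to -0.054 (6428504). In Slc38a5, whose mean hardly moved, 6446744, at background in both groups, rose by 1.40 and 5809624 had a change of -0.23.

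Enzymes that make and break down the carried substrates were counted from lists, to be read against the 17.4% of all genes that fell and the 13.7% that rose. Of 11 measured genes of glutamate and GABA metabolism 4 fell and none rose, Gad1 (-0.76 ± 0.12) and Gad2 (-0.89 ± 0.18), which make GABA, Glud1 (-0.47 ± 0.12), which oxidises glutamate, and the glutaminase Gls2 (-0.42 ± 0.10). Of 9 genes of glycine and serine metabolism 3 fell and none rose, among them Phgdh, the first enzyme of serine synthesis (-0.80 ± 0.16). Of 9 genes of monoamine and acetylcholine metabolism 3 fell and none rose, with the largest fall in Hnmt, which inactivates histamine (-1.46 ± 0.13).

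Among called genes, the list of tryptophan and arginine genes and that of the amino acid starvation response held rises only. The glutathione list and the creatine and taurine list held both rises and falls. Of 13 genes listed under tryptophan and arginine catabolism 5 rose and none fell. They included Kmo of the kynurenine pathway (1.91 ± 0.26), Kynu (0.70 ± 0.16) and Nos2 (0.43 ± 0.14), each from background in controls. Also among them was Ass1, which rebuilds arginine from citrulline (1.76 ± 0.16), so the list does not hold breakdown alone. Of 11 genes of the amino acid starvation response 3 rose, with Nupr1 the largest (1.10 ± 0.22), while Asns, a defining target of that response, had a change of -0.19 ± 0.14 and did not pass. Of 9 glutathione genes Gpx1 rose (1.28 ± 0.13) and Gclm fell (-0.65 ± 0.12), and of 5 creatine and taurine genes Cdo1 rose (0.70 ± 0.20) and Gamt fell (-0.58 ± 0.12). The listed genes given here with a change under 1 in size were named after their values were seen. The medians of these 7 lists ran from -0.21 (creatine and taurine) to 0.081 (tryptophan and arginine), near that of all genes (-0.11).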

How the data were processed

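The deposited values were log2 probe set intensities from Affymetrix rat exon arrays of total spinal cord RNA, amplified and biotin-labelled with NuGEN kits per the labels' protocols. Per the submitters' processing notes the authors used Affymetrix Expression Console, RMA and Partek, whose roles and settings are not given in the sources used here, nor is a genome build. The study's design text names a 2-way ANOVA in Partek.

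Of 80939 probe sets 76186 had 1 gene symbol, 550 had several and 4203 had none in the platform annotation, and only the first were used. Of the members' symbols 51 were current and 1 was renamed. Probe sets reaching the 25th percentile (log2 3.98) on at least 4 arrays were averaged per gene, so a probe set that does not respond dilutes its gene's change. Depth has no meaning for arrays, and 4 rats per group limit the precision. Genes and probe sets were fitted with lmFit and eBayes, and genes with at least 3 probe sets with diffSplice, in limma 3.58.1 (R 4.3.3), without covariates, since the labels give no batch per animal. Adjusted p-values are Benjamini-Hochberg over all genes or probe sets tested. Figures used matplotlib 3.10.9 in Python 3.11.15. The scripts were tested on simulated data.

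The members and lists were chosen with earlier results of these data known. Values on every array are given for called carriers with a change of 0.7 or more in size and for the best known carriers of each transmitter, and other members by change. For unequal change, the probe sets farthest above and below their gene are named, and list genes by a change of 1 or more. Alternatives covered the filter, normalization, variance model, array weights, gene summary, the 2-way ANOVA and each array left out.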

Additional observations from a re-analysis of the deposited data

Results flagged for a closer look

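A value far from the other 3 of its group was looked for in each carrier and group, 104 groups in all, by its gap to the nearest other value over the group's range. Chance flags about 5% of such groups, and 5 were found, each on a different array. Slc6a15, the neuronal branched-chain amino acid carrier, read 8.406 in control 196, against 7.966 to 7.984 in the other controls. Slc36a1, the lysosomal carrier, read 5.503 in control 193, against 5.166 to 5.207. Slc15a2, the peptide carrier, read 7.778 in EAE 218, against 8.389 to 8.509 in the other EAE rats. Slc17a7, a vesicular glutamate carrier, read 5.343 in EAE 217, against 5.075 to 5.105. Slc6a3, the dopamine carrier, which lay at background, read 4.56 in EAE 219, against 4.401 to 4.412.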

How the results depend on the processing

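No paired analysis was possible because the groups share no replicate numbers. Of the 19 called carriers 11 kept direction and call in all 18 alternatives (Slc1a3, Slc3a2, Slc6a15, Slc7a2, Slc7a3, Slc7a7, Slc7a8, Slc7a10, Slc15a3, Slc18a3 and Slc38a6), and the other 8 kept their direction but lost the call in at least 1. Rises numbered 8 to 14 and falls 5 to 11 with an array left out. In those settings 11.4% to 14.9% of all genes rose and 12% to 19.5% fell. Array quality weights gave 15 rises and 15 falls among the carriers, while 16.9% of all genes rose and 26.9% fell. The weights added Slc1a2, Slc1a5, Slc6a2, Slc6a3, Slc6a9, Slc6a13, Slc6a18, Slc17a5, Slc17a6, Slc32a1 and Slc38a4. Unequal probe set changes were called in 4 to 19 genes with an array left out, in 22 by the 2-way ANOVA and in 6 with arrays centred on the genes tested, an alternative chosen after seeing the data. Probe sets that rose numbered 46 to 79 with an array left out. Some carriers that did not pass turned sign, a cause that was not tested. These were Slc38a5 with no filter (-0.023), the 50th percentile (-0.20) or the median of probe sets (-0.026), and Slc38a1 with array weights (-0.013) or the median (-0.24). With the median Slc15a2 (-0.0014), Slc17a7 (0.11), Slc1a1 (0.039), Slc6a18 (0.15) and Slc6a8 (-0.073) did so too, and Slc6a8 also when centred on the genes tested (-0.013). With an array left out, ranges that crossed 0 were -0.088 to 0.055 (Slc1a1), -0.073 to 0.27 (Slc15a2), -0.22 to 0.0085 (Slc36a2), -0.12 to 0.20 (Slc38a1), -0.15 to 0.19 (Slc6a8) and -0.20 to 0.033 (Slc17a8). Signal over background limits the 5 carriers at background in both groups, and the 32 by the stricter limit.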
